A study of Mus musculus with 10 samples.

Results

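The integrin subunits, laminin chains, and nidogens of mouse EDL, psoas, and soleus muscle are described here. They were chosen by symbol, as protein-coding genes whose name in the GRCm38 annotation is Itga or Itgb followed by a number or a single letter, Lama, Lamb, or Lamc followed by 1 digit, or Nid1 or Nid2. The deposited tables held 34 such genes among 16112, namely 14 integrin alpha subunits, 8 integrin beta subunits, 10 laminin chains, and 2 nidogens. Integrin genes with longer names, such as Itga2b, fall outside this rule. The annotation lists 38 family genes, and Itgad, Itgal, Itgax, and Lama1 were not analysed here.

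Laminins are trimers of an alpha, a beta, and a gamma chain that polymerize into the sheet of the basement membrane around each muscle fiber, and nidogens link that sheet to collagen IV. Integrins are receptors made of an alpha and a beta subunit, and in muscle the pair of Itga7 and Itgb1 binds laminin and anchors the fiber to its matrix. Loss of Lama2 or Itga7 is a known cause of congenital muscular disease.

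The samples were 3 of EDL, 3 of psoas, and 4 of soleus muscle, all measured by RNA sequencing, in a comparison of muscles known as fast (EDL and psoas) and slow (soleus) that asks how far their transcriptomes differ. Each sample was labelled wild type and of the strain B6C3Fe a/a-Ttnmdm/J, without treatment, and ages ran from 32 to 54 days. EDL 1, 2, and 3 came from mice of 42, 54, and 44 days, psoas 1, 2, and 3 from mice of 42, 54, and 44 days, and soleus 1 to 4 from mice of 42, 44, 32, and 44 days. The labels gave 5 libraries as male and 4 as female, gave no sex for soleus 3, and held 7 animal codes, 3 of which had more than 1 library. The methods of the study state fewer mice than there are codes, so which libraries share an animal is uncertain. Total counts per library ran from 12737971 to 50431713. EDL 1 and 2 and psoas 1 and 2 were aligned after read trimming and the other 6 libraries without it, so that every soleus library was untrimmed. The sequencing run of each library is not given in the sources used here. By the supplement of the study, every EDL library had a higher RNA integrity number than any psoas or soleus library. The part of RNA quality in the results was not tested. Levels are normalized CPM, counts relative to the library total after TMM scaling in edgeR, and levels of different genes were compared as normalized CPM per kilobase of exon. The exon length was the union of all annotated exons of a gene, so comparisons between genes depend on the annotation. Samples of whole muscle hold many cell types, and in such samples fewer cells of a type and less RNA per cell cannot be told apart. Myh4, the fast IIB myosin, averaged 44038 normalized CPM in EDL and 1228 in soleus, and Myh7, the slow myosin, 51.5 and 9824. The p-values measure the spread between these samples, some of which share an animal.

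A call required a fold change above 2 together with an adjusted p below 0.01. By this rule, edgeR's quasi-likelihood test called 3 of the 34 genes between soleus and EDL, 2 between soleus and psoas, and 0 between psoas and EDL. Itgae and Lamb3 were higher and Itga4 was lower in soleus than in EDL (8.82% of the 34 genes, beside 5.77% of all genes). Itga7 was higher and Itga4 was lower in soleus than in psoas (5.88%, beside 5.69% of all genes). Between psoas and EDL, where 2.11% of all genes were called, the 0 calls of edgeR stood beside 4 by DESeq2 (Itga2, Itga9, Itgb7, and Lama3, all lower in psoas, with 6.8% of all genes called), 0 by limma-voom (2.19% of all genes), and 11 genes at an unadjusted edgeR p under 0.05 (29.0% of all genes). DESeq2 called 5 of the 34 between soleus and EDL (9.44% of all genes) and 3 between soleus and psoas (8.58%), and limma-voom called 3 (6.06%) and 1 (5.08%). At adjusted p under 0.05 without a fold threshold, edgeR passed 4 of the 34 for psoas against EDL (11.1% of all genes), 6 for soleus against EDL (18.6%), and 7 for soleus against psoas (14.5%). These counts depended on single libraries: leaving out 1 gave 0 to 8 for psoas against EDL (0 without EDL 1 or EDL 2, 1 without any psoas library, 8 without EDL 3), 3 to 11 for soleus against EDL (3 without EDL 1 or soleus 4, 11 without EDL 3), and 2 to 8 for soleus against psoas (2 without psoas 1 or soleus 4, 3 without EDL 2, psoas 2, or soleus 2, and 4 without soleus 3). Each gene that passed only this looser threshold in a comparison exceeded it in at least 1 alternative, with a highest adjusted p between 0.180 (Lama3, soleus against EDL) and 0.903 (Itga9, psoas against EDL). The 3 comparisons share libraries, so their counts are not independent of each other.

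The promoters of Itga4, Lamb3, and Itga2 are printed because these genes had the largest differences for which a promoter was listed: Itga4 low in soleus, Lamb3 high in soleus, and Itga2 high in EDL. Each sequence is the 250 bases before the RefSeq start on GRCm38.p6, in the direction of transcription, and capitals mark matches to 4 motifs on either strand. The letters CAGCTG were searched as the E-box. The GC box was searched as GGGCGG. For the TATA box the letters were TATAAA. The NFAT core was taken as GGAAA, and no 2 of these motifs contain each other. The Itga4 window lies at chr2:79255176-79255425 on the plus strand, that of Lamb3 at chr1:193301744-193301993 on the plus strand, and that of Itga2 at chr13:114932101-114932350 on the minus strand.
Itga4: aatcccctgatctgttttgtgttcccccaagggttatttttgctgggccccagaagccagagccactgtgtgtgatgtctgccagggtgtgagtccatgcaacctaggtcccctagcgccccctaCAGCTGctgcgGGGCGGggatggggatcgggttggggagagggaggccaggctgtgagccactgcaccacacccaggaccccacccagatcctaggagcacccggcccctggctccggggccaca
Lamb3: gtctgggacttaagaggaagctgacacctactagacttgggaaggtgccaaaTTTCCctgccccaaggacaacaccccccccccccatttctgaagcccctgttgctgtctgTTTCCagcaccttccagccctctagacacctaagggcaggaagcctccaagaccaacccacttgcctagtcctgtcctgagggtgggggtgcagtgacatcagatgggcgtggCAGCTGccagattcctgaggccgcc
Itga2: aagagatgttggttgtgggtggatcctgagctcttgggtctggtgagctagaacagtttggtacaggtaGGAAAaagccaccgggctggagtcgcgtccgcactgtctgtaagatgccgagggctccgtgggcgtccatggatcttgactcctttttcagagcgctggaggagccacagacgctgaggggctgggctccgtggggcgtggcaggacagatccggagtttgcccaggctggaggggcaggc
The Itga4 promoter held 1 E-box and 1 GC box, the Lamb3 promoter 1 E-box and 2 NFAT cores, and the Itga2 promoter 1 NFAT core. Among all 32851 listed promoters, 13.0% held the E-box, 32.7% the GC box, 12.4% the TATA box, and 55.6% the NFAT core. Promoters were listed for 22 of the 34 genes, and these 25 promoters held the 4 motifs in 5, 10, 0, and 14 cases. A match is a description of letters and not a bound site. For Lamb3, 2 starts were listed and the most upstream was used. It lies within the gene as GENCODE bounds it, and the start used in these muscles was not measured.

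Levels ran over 3 orders of magnitude per kilobase. Itgb1, the beta subunit shared by most integrins that bind laminin, collagen, and fibronectin, led with a mean over the 3 muscles of 64.8 normalized CPM per kilobase. Lamb2, the laminin beta chain concentrated at the neuromuscular junction, followed at 22.2, and Itgb5, a partner of Itgav, at 18.1 normalized CPM per kilobase. The fourth was Itgb6, a partner of Itgav known mainly from epithelia, at 9.15, ahead of Nid1 at 8.996, Itga7 at 7.54, and Lamc1, the common gamma chain, at 7.44 normalized CPM per kilobase. Itgav, Itga6, Lamb1, Lama2, and Lama4 had means from 3.52 to 4.70, and the other 22 genes had means below 1, from 0.964 for Itga1 down to 0.0491 for Itga10.

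The order of neighbors in this list was mostly not resolved. Of its 33 neighboring pairs, 31 overlapped in their ranges over the 10 libraries. The exceptions were Itgb1, whose lowest library (52.9 normalized CPM per kilobase) lay above the highest of Lamb2 (32.6), and Lama4, whose lowest library (2.14) lay above the highest of Itga1 (1.66). Itgb6 had 555 to 2694 counts per library and stood in EDL at 50.8 to 56.7, in psoas at 39.3 to 69.6, and in soleus at 61.6 to 125 normalized CPM. Every soleus library lay above every EDL library for Itgb6, while its adjusted p was not under 0.05 in any comparison.

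**Figure D1:**
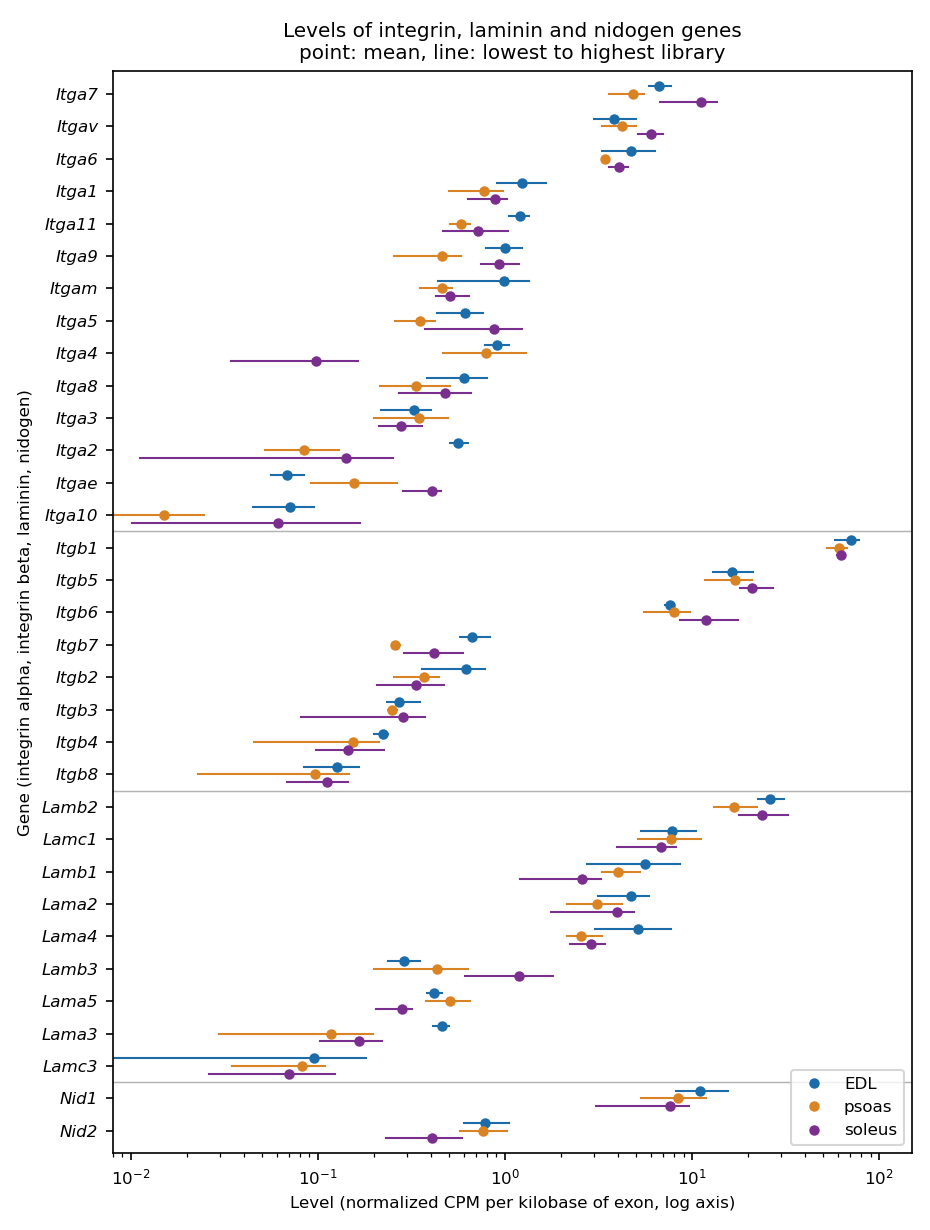
Levels of integrin, laminin, and nidogen genes in normalized CPM per kilobase of exon on a log axis, grouped as integrin alpha, integrin beta, laminin, and nidogen genes. Points are muscle means and lines run from the lowest to the highest library (3 EDL, 3 psoas, 4 soleus). Lines that reach the left edge include a library with a count of 0 (Itga10 in psoas, Lamc3 in EDL). Itgb1 stands apart at the far right, and Itga4 in soleus and Itga2 in EDL lie off the other muscles.

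Itga4, the alpha subunit that binds Vcam1 and fibronectin and is best known from leukocytes, had the largest difference involving soleus. It stood at 14.7, 10.9, and 12.2 normalized CPM in EDL 1, 2, and 3, at 18.2, 6.53, and 8.43 in psoas 1, 2, and 3, and at 0.889, 2.27, 0.478, and 1.79 in soleus 1 to 4. Every soleus library lay below every library of the other muscles, and EDL and psoas overlapped. In edgeR, the log2 fold change was -3.13 (SE 0.45, adjusted p = 0.00108) for soleus against EDL and -2.95 (SE 0.45, adjusted p = 0.00149) for soleus against psoas. Counts behind these levels were 103 to 689 in EDL and psoas and 6 to 76 in soleus.

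The Itga4 call held in 21 of 22 alternative analyses against EDL and in 20 of 22 against psoas, with adjusted p from 1.16e-10 to 0.0362 and from 1.39e-09 to 0.0717. Among the untrimmed libraries, EDL 3 (12.2) and psoas 3 (8.43) still lay above the 4 soleus libraries, where the adjusted p was 0.0362 and 0.0717 with 1 library each of EDL and psoas. With read trimming as a covariate, the call against EDL held and that against psoas was lost, with an adjusted edgeR p under 0.05 in each. The summed leukocyte markers ran from 121 to 300 normalized CPM in EDL, 51.9 to 134 in psoas, and 93.8 to 144 in soleus, and their part in the Itga4 result was not tested. Exons of Itga4 share 8.04% of their length with the oppositely oriented gene Cerkl, which has no row in the tables analysed here.

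Itgae, the alpha subunit of the integrin of intraepithelial lymphocytes that binds E-cadherin, was scarce everywhere and highest in soleus. EDL 1, 2, and 3 had 0.257, 0.302, and 0.384 normalized CPM, psoas 1, 2, and 3 had 0.422, 0.507, and 1.204, and soleus 1 to 4 had 1.30, 2.03, 2.07, and 2.06. The groups did not overlap in any of the 3 comparisons. In edgeR, the log2 fold change was 2.59 (SE 0.41, adjusted p = 0.00232) for soleus against EDL and 1.45 (SE 0.40, adjusted p = 0.0350) for soleus against psoas. The latter was called with animal as a random effect (adjusted p = 0.00732) and without psoas 3. Its adjusted p rose above 0.05 with read trimming (0.195), age (0.105), or sex as a covariate. The same held without any 1 of EDL 2, psoas 1, psoas 2, soleus 2, soleus 3, or soleus 4, and in the untrimmed libraries alone. These levels rest on 7 to 68 counts per library. The call against EDL was lost without EDL 1 (adjusted p = 0.0185), without EDL 2 (0.0167), with read trimming (0.0299) or age (0.0132) as a covariate, and in the untrimmed libraries alone (0.115). Its partner Itgb7 was not highest in soleus, with 1.59 to 2.30 normalized CPM in EDL, 0.686 to 0.761 in psoas, and 0.797 to 1.64 in soleus. Itgb7 was lower in psoas than in EDL at the looser threshold (log2 fold change -1.37, SE 0.33, adjusted p = 0.0251).

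Itga7, the laminin-binding alpha subunit of muscle fibers, was higher in soleus than in psoas. It measured 47.6, 51.6, and 62.6 normalized CPM in EDL 1, 2, and 3, 29.2, 43.4, and 44.7 in psoas 1, 2, and 3, and 54.6, 109, 109, and 86.3 in soleus 1 to 4. Soleus and psoas did not overlap, and soleus 1 lay within the EDL range. The log2 fold change of soleus against psoas was 1.21 (SE 0.25, adjusted p = 0.00916), close to the threshold. The adjusted p rose above 0.01 without any 1 of EDL 1, EDL 2, psoas 1, psoas 2, psoas 3, soleus 2, soleus 3, or soleus 4 (0.0142 to 0.0426), with limma-voom (0.0105), with sex (0.0207), age (0.0378), or read trimming (0.0641) as a covariate, in the 2 muscles alone (0.0177), and in the untrimmed libraries alone (0.270), so that the call held in 8 of 22 alternative analyses. Against EDL, soleus had a mean of 90.0 normalized CPM beside 53.9, with an adjusted p of 0.0608.

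Among the laminin-binding alpha subunits, counted per kilobase, Itga7 made up, of the sum of Itga3, Itga6, and Itga7, 57.2% ± 10.2 in the 3 EDL, 55.8% ± 5.86 in the 3 psoas, and 70.9% ± 5.85 in the 4 soleus libraries (mean ± SD). The shares of soleus (63.1% to 76.5%) lay above those of psoas (49.3% to 60.5%) and overlapped those of EDL (47.4% to 67.8%). Itga6, which is also abundant in endothelium and nerve, made up 40.0% ± 10.9, 40.1% ± 5.16, and 27.1% ± 5.08. The ratio of Itga7 to Itga6 per kilobase was 1.56 ± 0.71 in EDL, 1.42 ± 0.30 in psoas, and 2.71 ± 0.70 in soleus. The exact two-sided permutation test of soleus against psoas gave p = 0.0571, which 4 libraries against 3 cannot go below, and a Benjamini-Hochberg value of 0.229 among 12 tests of 4 ratios. Within EDL this ratio was 0.933 and 1.41 in the trimmed libraries 1 and 2 and 2.33 in the untrimmed EDL 3, and the part of trimming in it was not tested.

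Itgav, the alpha subunit of receptors for vitronectin and latent TGF-beta, was higher in soleus than in EDL at the looser threshold. EDL 1, 2, and 3 had 37.2, 32.1, and 54.0 normalized CPM, psoas 47.3, 35.4, and 54.0, and soleus 55.1, 74.7, 64.0, and 65.7. The 4 soleus libraries lay above all others, with EDL 3 and psoas 3 close below soleus 1. The log2 fold change against EDL was 0.66 (SE 0.21, adjusted p = 0.0498). This adjusted p was not under 0.05 with upper-quartile scaling, a replicate block, or read trimming, sex, or age as a covariate. The same held without any 1 of EDL 1, EDL 2, psoas 1, psoas 3, or the 4 soleus libraries.

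**Figure D2:**
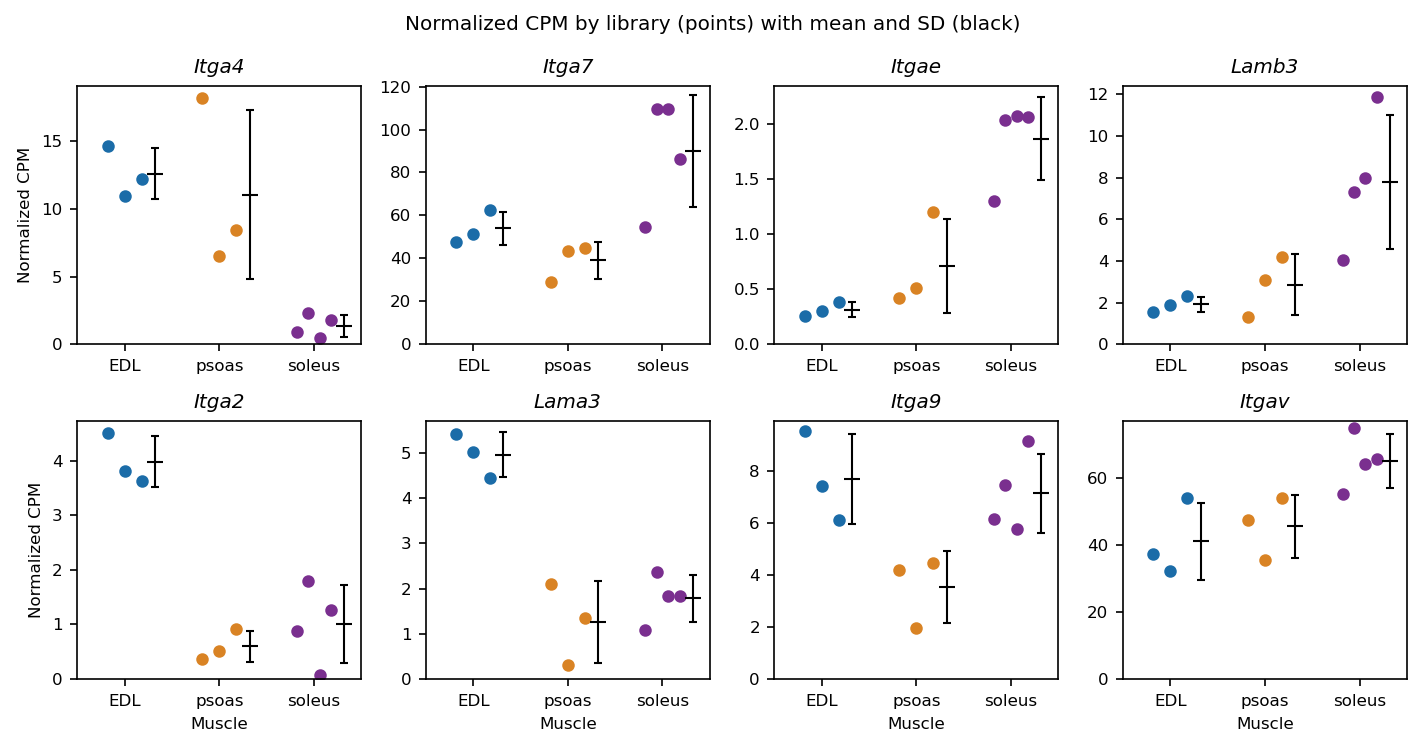
Normalized CPM of 8 integrin and laminin genes in each library of EDL, psoas, and soleus (points, linear axes from 0), with the mean and SD of each muscle in black. Soleus is lowest in Itga4 and highest in Itgae, EDL is highest in Itga2 and Lama3, and psoas is lowest in Itga9.

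Itga2, a collagen-binding alpha subunit, and Lama3, a laminin alpha chain of epithelia, stood out in EDL. Itga2 had 4.51, 3.81, and 3.62 normalized CPM in EDL 1, 2, and 3, 0.369, 0.507, and 0.921 in psoas 1, 2, and 3, and 0.889, 1.79, 0.0797, and 1.27 in soleus 1 to 4. No library of psoas or soleus reached an EDL library. In edgeR, the log2 fold change was -2.80 (SE 0.61, adjusted p = 0.0182) for psoas against EDL and -1.90 (SE 0.54, adjusted p = 0.0295) for soleus against EDL. For psoas against EDL its adjusted p ran from 0.000145 (DESeq2) to 0.847 (the untrimmed libraries alone) over the alternatives. It rose above 0.05 without EDL 1 (0.0691), EDL 2 (0.0575), psoas 1 (0.0614), or psoas 2 (0.0601), and it was 0.00209 without soleus 3, the library in which Itga2 had 1 count. Lama3 had 5.42, 5.03, and 4.45 normalized CPM in EDL, 2.11, 0.317, and 1.35 in psoas, and 1.09, 2.36, 1.83, and 1.85 in soleus. Here too EDL lay above both other muscles in every library, with log2 fold changes of -1.92 (SE 0.47, adjusted p = 0.0263) for psoas and -1.46 (SE 0.43, adjusted p = 0.0350) for soleus. For psoas against EDL, the adjusted p of Lama3 rose above 0.05 without EDL 1 (0.0929), EDL 2 (0.0793), or psoas 3 (0.0652), with a replicate block (0.0601), in the 2 muscles alone (0.0688), in the trimmed libraries alone (0.0867), and in the untrimmed libraries alone (0.585).

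Summed tendon markers ran in the same direction as these genes, from 690 to 782 normalized CPM in EDL, 30.9 to 82.4 in psoas, and 113 to 464 in soleus. The soleus libraries had the same order in Itga2 as in the tendon markers (soleus 3, 1, 4, and 2 from low to high). The EDL and psoas libraries did not, and for Lama3 no muscle had the order of the tendon markers. The 8 tendon markers were all called lower in psoas than in EDL, where 2.11% of all genes were called. Of these, 6 were called higher in soleus than in psoas, where 5.69% of all genes were called. Summed fibroblast markers were likewise highest in EDL, at 3371 to 5097, beside 993 to 1424 in psoas and 1462 to 2147 in soleus. Their part in the results on Itga2 and Lama3 was not tested.

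Psoas was the lowest muscle for Itga9, the alpha subunit that binds tenascin C and osteopontin. It had 9.53, 7.41, and 6.10 normalized CPM in EDL, 4.17, 1.97, and 4.46 in psoas, and 6.16, 7.45, 5.74, and 9.13 in soleus. Psoas overlapped neither of the other muscles, and EDL and soleus overlapped each other. In edgeR, the log2 fold change was -1.12 (SE 0.31, adjusted p = 0.0415) for psoas against EDL and 1.01 (SE 0.29, adjusted p = 0.0431) for soleus against psoas. Neither adjusted p was under 0.05 with a replicate block, with age as a covariate, or in the 2 muscles alone. Nor was either without any 1 of EDL 2, psoas 1, psoas 2, soleus 1, soleus 2, or soleus 4. That of soleus against psoas was also lost with read trimming or sex as a covariate. That of psoas against EDL was also lost without EDL 1 or psoas 3. Itga5, the fibronectin receptor subunit, was also higher in soleus than in psoas (log2 fold change 1.31, SE 0.39, adjusted p = 0.0462), although soleus 3 (1.83) lay within the psoas range of 1.27 to 2.08 normalized CPM. The other soleus libraries had 3.56 to 6.07 and the EDL libraries 2.14 to 3.76 normalized CPM of Itga5. Without soleus 3, Itga5 was called. Its adjusted p was not under 0.05 with limma-voom, upper-quartile scaling, a replicate block, an animal effect, or read trimming or age as a covariate. The same held in the 2 muscles alone and without any 1 of EDL 1, EDL 2, the psoas libraries, soleus 1, soleus 2, or soleus 4.

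The other collagen-binding subunits were Itga1, Itga10, and Itga11. Itga11, known from fibroblasts, had 5.38 to 6.87 normalized CPM in EDL, 2.60 to 3.35 in psoas, and 2.39 to 5.29 in soleus, and EDL lay above both other muscles in every library (adjusted p = 0.0556 and 0.103). Itga1 had 16.9 to 30.8, 9.32 to 18.2, and 11.8 to 19.0. Itga10, a chondrocyte subunit, was near the detection limit at 9 to 20 counts in EDL, 4, 2, and 0 in psoas, and 4, 29, 1, and 1 in soleus. Its count of 0 in psoas 3 allows up to 0.212 normalized CPM. Gm42957 shares 33.5% of the exon length of Itga10 on the same strand, so its counts are uncertain. Its fold changes were the second largest in size between psoas and EDL (-2.01, SE 1.09, adjusted p = 0.211) and between soleus and psoas (2.01, SE 1.07, adjusted p = 0.208), and they passed no threshold. Per kilobase, Itga2 made up 17.2% to 19.9% of the 4 collagen-binding subunits in EDL, 3.04% to 8.43% in psoas, and 0.992% to 10.2% in soleus.

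The leukocyte subunits Itgam and Itgb2, which pair to form Mac-1, had no call in the fit over all libraries. Itgam had 5.81, 6.78, and 2.20 normalized CPM in EDL 1, 2, and 3, 1.77 to 2.60 in psoas, and 2.15 to 3.22 in soleus, and Itgb2 had 2.20, 2.37, and 1.10 in EDL, 0.779 to 1.35 in psoas, and 0.633 to 1.44 in soleus. EDL 1 and 2 stood above all other libraries in both genes, and EDL 3 did not. The leukocyte markers showed the same split, with 279 and 300 normalized CPM in EDL 1 and 2 and 121 in EDL 3. In psoas these markers had 97.6 and 134 in psoas 1 and 2 and 51.9 in psoas 3. Itgam and Itgb2 were likewise lowest in psoas 3 among the psoas libraries. EDL 3 and psoas 3 were the untrimmed libraries of their muscles, and the part of trimming in the marker sums was not tested. With read trimming as a covariate, Itgam had an adjusted edgeR p under 0.05 for psoas against EDL, without a call. For soleus against EDL it did not with that covariate. In the trimmed libraries alone, Itgam again had an adjusted p under 0.05 for psoas against EDL, without a call. Without EDL 3, Itgam was called lower in psoas and in soleus than in EDL. Gm49368 shares 68.7% of the exon length of Itgam on the same strand, so its counts are uncertain.

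Of the other integrin subunits, Itga3, Itga6, Itga8, Itgb1, Itgb3, Itgb4, Itgb5, and Itgb8 had adjusted p above 0.05 in each comparison. Itgb1 differed little, at 238 to 318 normalized CPM in EDL, 216 to 276 in psoas, and 244 to 265 in soleus. Its share of the summed beta subunits per kilobase was 72.9% ± 6.19 in EDL, 70.0% ± 4.26 in psoas, and 65.0% ± 5.53 in soleus (mean ± SD over 3, 3, and 4 libraries). Itgb5 had 46.2 to 75.0, 41.7 to 74.2, and 64.0 to 95.9 normalized CPM, and its levels were higher in EDL 3 and psoas 3 than in their trimmed group mates. Itga3, an epithelial laminin receptor subunit, stayed between 1.14 and 2.83 normalized CPM, Itga8 between 1.59 and 5.91, Itgb3 between 0.478 and 2.21, Itgb4, the hemidesmosome partner of Itga6, between 0.317 and 1.66, and Itgb8 between 0.254 and 1.82.

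Among laminin chains, Lamb3, a laminin beta chain of epithelia, was higher in soleus. EDL 1, 2, and 3 had 1.56, 1.87, and 2.31 normalized CPM, psoas 1.32, 3.11, and 4.18, and soleus 4.04, 7.33, 7.97, and 11.9. Soleus lay above EDL in every library, and soleus 1 lay below psoas 3. In edgeR, the log2 fold change was 2.04 (SE 0.40, adjusted p = 0.00809) for soleus against EDL and 1.48 (SE 0.41, adjusted p = 0.0363) for soleus against psoas. The latter was called with animal as a random effect (adjusted p = 0.00871) and with DESeq2 (0.00519). Its adjusted p rose above 0.05 with read trimming (0.182), age (0.0754), or sex as a covariate and in the 2 muscles alone. The same held without any 1 of EDL 2, psoas 1, psoas 2, soleus 2, soleus 3, or soleus 4, and in the untrimmed libraries alone. The call against EDL held in 11 of 22 alternative analyses. It was lost without any 1 of EDL 1, EDL 2, EDL 3, psoas 2, soleus 2, soleus 3, or soleus 4 (adjusted p 0.0114 to 0.0476), with read trimming (0.0974), sex (0.0163), or age (0.0237) as a covariate, and in the untrimmed libraries alone (0.210).

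Lama5, the alpha chain of laminins of mature vessels and of the synapse, was lower in soleus than in psoas. It had 5.25, 4.58, and 4.34 normalized CPM in EDL, 7.41, 4.31, and 5.52 in psoas, and 3.63, 3.50, 2.31, and 3.33 in soleus, and soleus lay below all other libraries. The log2 fold change was -0.85 (SE 0.24, adjusted p = 0.0337) against psoas. This adjusted p was not under 0.05 with a replicate block, with read trimming, sex, or age as a covariate, or in the 2 muscles alone. The same held without any 1 of EDL 2, psoas 1, psoas 3, soleus 2, soleus 3, or soleus 4. Per kilobase, Lama5 made up 7.76% to 8.39% of the summed laminin alpha chains in psoas, above the 3.15% to 5.47% of EDL and the 3.47% to 4.65% of soleus. The larger shares belonged to Lama2, the chain of the adult fiber basement membrane, with 44.7% ± 4.07, 49.2% ± 2.96, and 52.7% ± 8.33 (mean ± SD over the 3 EDL, 3 psoas, and 4 soleus libraries), and to Lama4, the chain of vessels and nerve, with 46.6% ± 5.57, 41.0% ± 3.94, and 40.9% ± 6.86.

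The more abundant laminin chains, Lama2, Lama4, Lamb1, Lamb2, and Lamc1, had edgeR adjusted p above 0.05 in every comparison. With DESeq2, Lama4 was lower in psoas and in soleus than in EDL, and Lamb1 lower in soleus than in EDL, at adjusted p under 0.05. Lama2 had 51.4 to 96.5 normalized CPM in EDL, 35.2 to 69.3 in psoas, and 28.8 to 80.2 in soleus, Lama4 36.5 to 93.5, 25.9 to 39.8, and 26.9 to 41.2, and Lamc1 44.3 to 86.3, 42.5 to 92.5, and 32.9 to 67.5. Lamb1 had 27.2 to 85.2, 32.8 to 52.5, and 11.9 to 32.3, and Lamb2 137 to 188, 79.5 to 135, and 108 to 198. Lamc3 had at most 1.10 normalized CPM, and its count of 0 in EDL 3 allows up to 0.165.

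The ratio of summed alpha to summed gamma chains per kilobase was 1.36, 1.30, and 1.29 in EDL 1, 2, and 3, 0.732, 0.869, and 0.834 in psoas 1, 2, and 3, and 0.945, 1.03, 0.926, and 1.03 in soleus 1 to 4. The 3 muscles did not overlap, EDL being highest and psoas lowest, and the untrimmed EDL 3 and psoas 3 lay with the other libraries of their muscle. Exact two-sided permutation tests gave p = 0.1 for psoas against EDL and 0.0571 for soleus against each other muscle, in each case the smallest the design allows, and the Benjamini-Hochberg value was 0.229 for each among the 12 tests. The ratio compares RNA of chains and not assembled trimers.

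The ratio of summed beta to summed gamma chains per kilobase varied more within a muscle, from 2.91 to 6.27 in EDL, 1.62 to 3.78 in psoas, and 2.58 to 4.80 in soleus, and the muscles overlapped (smallest exact two-sided permutation p of the 3 comparisons 0.343). The ratio of Lamb2 to Lamb1 per kilobase was 2.62 and 4.60 in the trimmed EDL 1 and 2 and 11.2 in the untrimmed EDL 3, 2.47 and 4.39 in the trimmed psoas 1 and 2 and 6.72 in the untrimmed psoas 3, and 6.51 to 16.9 in soleus. Every untrimmed library lay above every trimmed one in this ratio. In the untrimmed libraries alone, EDL 3 and psoas 3 lay within the soleus range, and soleus was not separate from them. No soleus library was trimmed, and the part of trimming in this ratio was not tested. The smallest exact permutation p of the 3 comparisons was 0.114 (two-sided, 0.229 adjusted over the 12 tests).

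**Figure D3:**
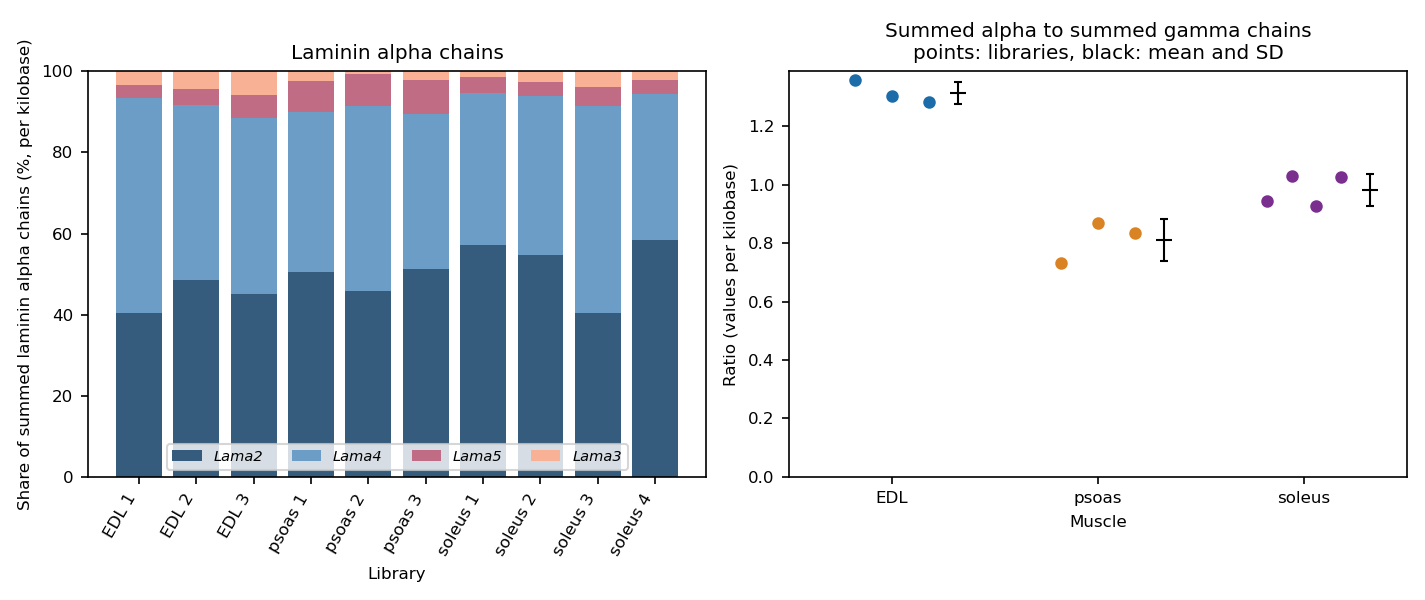
Left, the share of Lama2, Lama4, Lama5, and Lama3 in the summed laminin alpha chains of each library (percent, values per kilobase of exon, bars from 0 to 100). Right, the ratio of summed alpha to summed gamma chains per library (points, linear axis from 0) with the mean and SD of each muscle in black. EDL sits at 1.29 to 1.36, soleus at 0.926 to 1.03, and psoas at 0.732 to 0.869.

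Nid1 had 57.1 to 108 normalized CPM in EDL, 37.0 to 82.2 in psoas, and 21.4 to 66.5 in soleus, and Nid2 had 3.13 to 5.46, 2.97 to 5.28, and 1.196 to 3.05. Every soleus library lay below every EDL library for Nid2, without passing a threshold (adjusted p = 0.0875). Nid2 shares 437 exon bases, 8.45% of its length, with the oppositely oriented Rtraf, which had 21338 counts over the libraries beside 950 for Nid2, and the strand setting of the counting is not given, so the Nid2 values are uncertain.

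Over the 34 genes, the median log2 fold change was -0.47 for psoas against EDL (7 above 0 and 27 below), -0.24 for soleus against EDL (10 above and 24 below), and 0.28 for soleus against psoas (24 above and 10 below). Over all genes the medians were 0.01, -0.05, and 0.02. In each comparison 10 of the 34 genes (29.4%) did not overlap between the groups, beside 29.6%, 29.5%, and 25.8% of all genes. For psoas against EDL, 9 of these 10 were lower in psoas (26.5% of the 34, beside 16.3% of all genes) and Itgae was higher (2.94%, beside 13.4%). Endothelial marker sums were 162 to 270 normalized CPM in EDL, 155 to 181 in psoas, and 192 to 226 in soleus, and myofibre marker sums were 106729 to 142382 in EDL, 161875 to 192348 in psoas, and 103737 to 123610 in soleus. For psoas against EDL the median log2 fold change was -1.25 over the fibroblast markers and -1.30 over the leukocyte markers. It was -4.41 over tendon, -0.51 over pericyte and smooth muscle, and -0.47 over endothelial markers. The other lists had medians above 0: satellite cell 0.06, adipocyte 0.11, Schwann cell 0.21, myofibre 0.74, and erythroid and platelet markers 0.78. The part of cell makeup in the medians of the 34 genes was not tested.

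**Figure D4:**
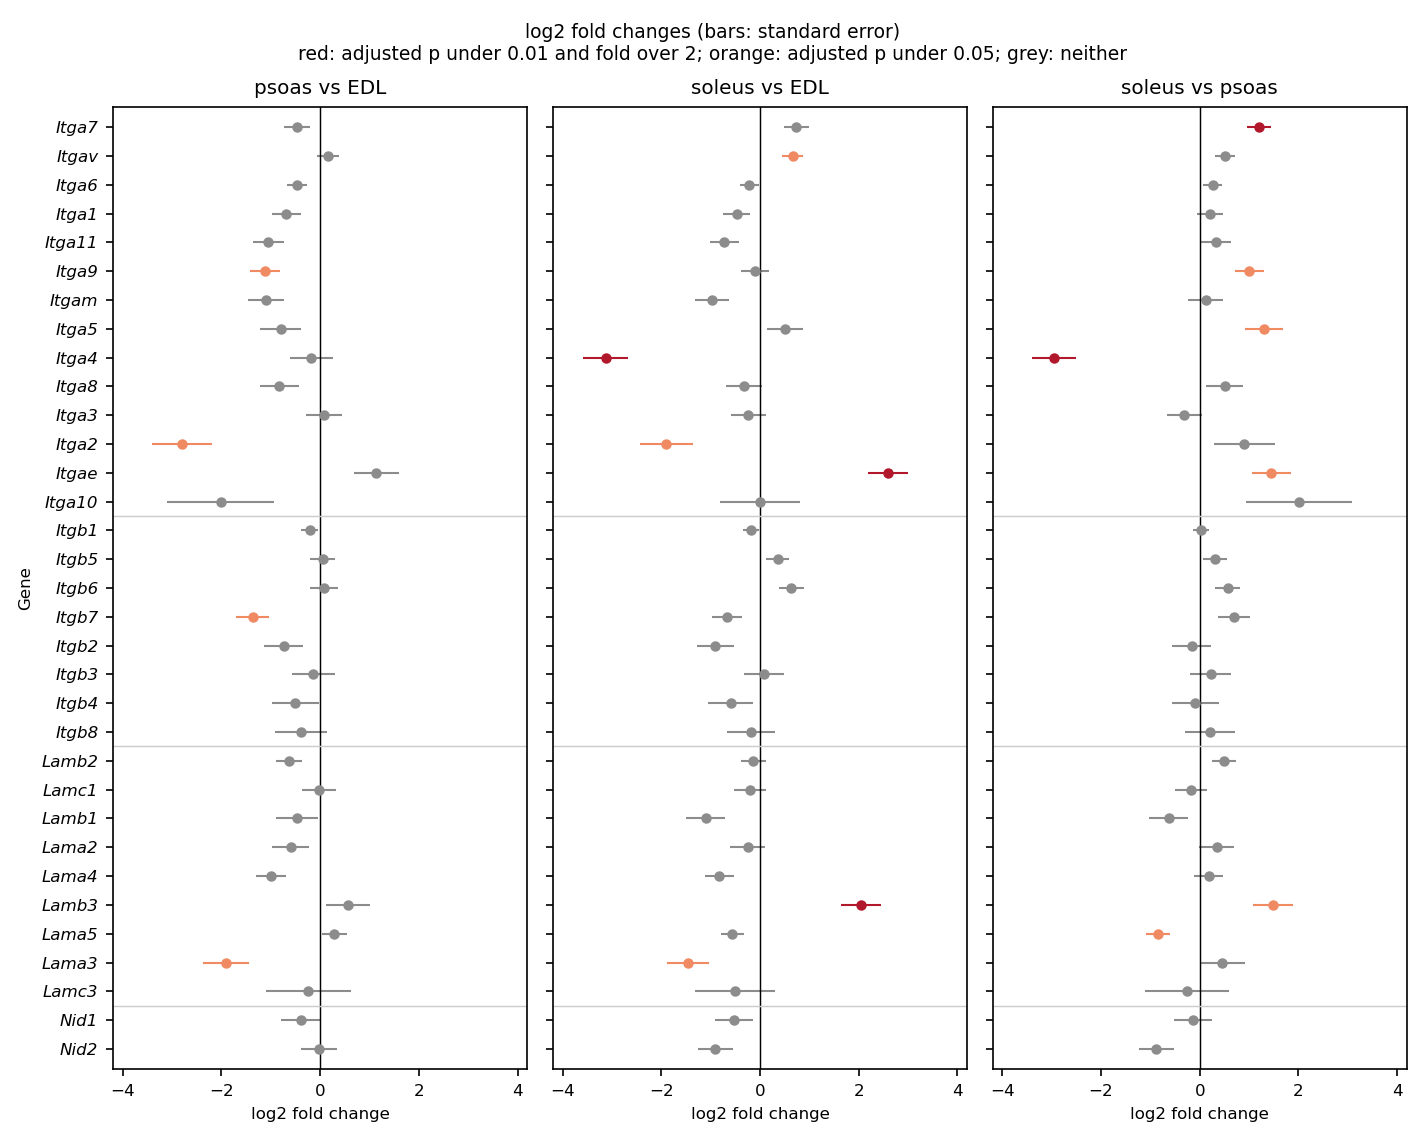
Log2 fold changes of integrin, laminin, and nidogen genes with standard errors in the 3 comparisons, from 1 edgeR fit. Red marks called genes (fold change above 2, adjusted p below 0.01), orange adjusted p under 0.05, and grey neither. Most points lie left of 0 for psoas against EDL, and Itga4 lies far left for soleus against both other muscles.

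The proteins that connect integrins to the fiber interior were examined in a list of 34 adaptor and signaling genes, 33 of which had counts. Against EDL, soleus had 4 of the 33 called higher and 0 lower, where 5.77% of all genes were called. At an edgeR adjusted p under 0.05, 5 were higher and 3 lower in soleus than in EDL (18.6% of all genes passed). Against psoas, 2 were higher and 3 lower in soleus (14.5%). The median log2 fold change of the list was 0.06 for soleus against EDL and 0.08 for soleus against psoas. Lims1 (PINCH1), a partner of integrin-linked kinase, had 82.5, 70.7, and 69.2 normalized CPM in EDL, 67.0, 73.7, and 85.0 in psoas, and 196, 229, 231, and 247 in soleus. Soleus lay above both other muscles in every library, and EDL and psoas overlapped. In edgeR, the log2 fold change was 1.61 (SE 0.16, adjusted p = 0.000145) against EDL and 1.59 (SE 0.16, adjusted p = 0.000162) against psoas, and each call held in 21 of 22 alternative analyses.

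Also called were Tln2, a talin that binds integrin tails (log2 fold change 1.44, SE 0.26, adjusted p = 0.00489) and Parvb, a parvin that binds actin and integrin-linked kinase (1.54, SE 0.27, adjusted p = 0.00403). Each of these calls held in 14 of 22 alternative analyses. The Tln2 call was lost without EDL 1, EDL 2, or soleus 1, 2, or 3 (adjusted p 0.0135 to 0.0342), and that of Parvb without EDL 1, EDL 2, soleus 1, or soleus 3 (0.0107 to 0.0298). With read trimming or age as a covariate and in the untrimmed libraries alone the adjusted p was 0.0301, 0.0221, and 0.188 for Tln2 and 0.0326, 0.0234, and 0.235 for Parvb, and with a replicate block it was 0.0118 for Parvb. Cd9, a tetraspanin that associates with integrins, was the 1 gene of the list called between psoas and EDL (-1.32, SE 0.18, adjusted p = 0.00297, lower in psoas), a call held in 15 of 23 alternatives and lost without EDL 1, EDL 2, psoas 1, or psoas 2 (0.0131 to 0.0155), with a replicate block (0.0127), in the 2 muscles alone (0.0160), and in the trimmed (0.0106) or untrimmed libraries alone (0.570).

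Dystroglycan is the other laminin receptor of the fiber. Of 20 genes of its complex, 2 were called higher in soleus than in EDL (5.77% of all genes called), 1 of these also in soleus than in psoas (5.69%), and 0 between psoas and EDL by edgeR (2.11%), where 4 had adjusted p under 0.05. Sspn, the sarcospan subunit, was called against EDL (1.31, SE 0.26, adjusted p = 0.00726) in 11 of 22 alternatives, and was lost without any 1 of EDL 1, EDL 2, psoas 2, or the 4 soleus libraries (up to 0.0441), with a replicate block (0.0156), read trimming (0.0396), or age (0.0311), and in the untrimmed libraries alone (0.215).

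**Figure D5:**
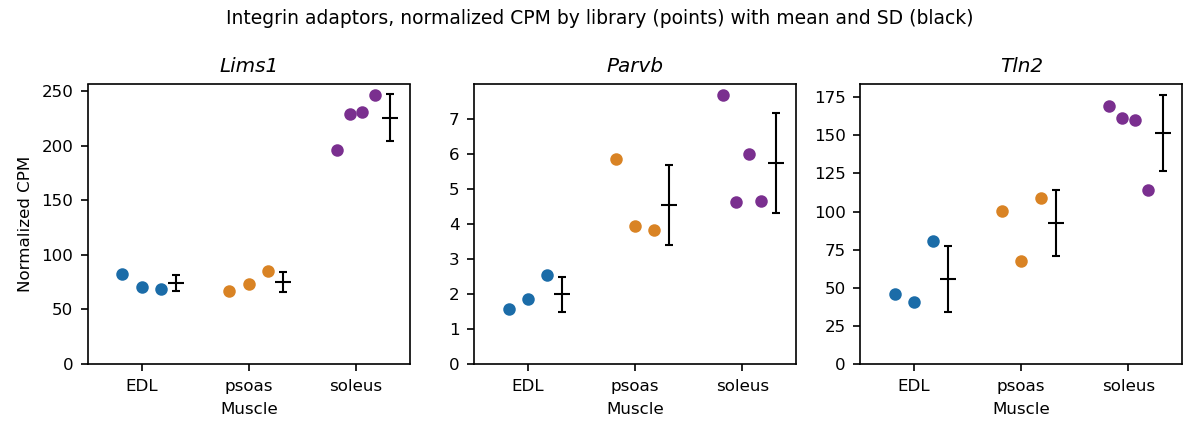
Normalized CPM of the adaptors Lims1, Parvb, and Tln2 in each library (points, linear axes from 0), with the mean and SD of each muscle in black. Every soleus library lies above every EDL library in all 3 genes, and above every psoas library in Lims1 and Tln2 but not in Parvb.

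Of 21 other components of the basement membrane and its surroundings, 1 was called in each comparison, where 2.11%, 5.77%, and 5.69% of all genes were called for psoas against EDL, soleus against EDL, and soleus against psoas. Tnc (tenascin C), a ligand of Itga9, was lower in psoas than in EDL (-4.84, SE 0.70, adjusted p = 0.00519), at 47.6, 49.1, and 57.1 normalized CPM in EDL, 1.27, 1.78, and 2.48 in psoas, and 9.10, 36.2, 2.31, and 19.7 in soleus. That call held in 15 of 23 alternatives and was lost without EDL 1, EDL 2, psoas 1, psoas 2, or psoas 3 (0.0153 to 0.0239), with limma-voom (0.0104) or a replicate block (0.0120), and in the untrimmed libraries alone (0.592). Smoc2, a calcium-binding matrix protein, was lower in soleus than in EDL (-1.37, SE 0.17, adjusted p = 0.000397), held in 21 of 22. Ntn4, a netrin that binds laminin gamma chains, was higher in soleus than in psoas (1.01, SE 0.20, adjusted p = 0.00776), held in 6 of 22 and lost without EDL 1 (0.0126), any psoas library, or soleus 1, 2, or 3 (up to 0.0423). Its adjusted p reached 0.189 in the untrimmed libraries alone, and in several other alternatives its fold change came out just under 2.

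The shares of all genes called were 2.11% (psoas against EDL), 5.77% (soleus against EDL), and 5.69% (soleus against psoas). Of 10 fibroblast markers, 2 were called lower in psoas than in EDL (Dcn and Gsn). In soleus, 3 were called lower than in EDL (Pdgfra, Dcn, and Lum). The leukocyte marker Mrc1, 1 of 10, was called lower in psoas and in soleus than in EDL. At an edgeR adjusted p under 0.05, 7 fibroblast and 4 leukocyte markers were lower in psoas than in EDL (11.1% of all genes passed). For soleus against EDL, 5 and 3 were lower (18.6% of all genes passed). No marker of satellite cells (6 measured), endothelium (10), pericytes and smooth muscle (10), Schwann cells (9), adipocytes (8), or erythroid cells and platelets (8) was called by edgeR, although 1 to 4 of each of these lists had adjusted p under 0.05 in at least 1 comparison. Of 11 myofibre markers, 6 were called between soleus and EDL (Mylpf, Myh2, Myh4, Myh7, Actn2, and Des), 5 between soleus and psoas (Ckm, Mylpf, Myh4, Myh7, and Actn2), and 0 between psoas and EDL. Satellite cell marker sums were 30.2 to 41.6 normalized CPM in EDL, 14.8 to 19.0 in psoas, and 12.7 to 38.3 in soleus.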

How the data were processed

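Total RNA of 10 mouse muscle samples was sequenced with a stranded, ribosome-depleted kit. The deposited values were whole read counts per gene, which the authors made with TopHat2 2.1.1 and Trimmomatic 0.32 (4 libraries trimmed) on mm10/GRCm38.p4 and counted in R. Strand and multi-mapper settings are not given in the sources used here. Each of the 16112 genes had at least 10 reads in at least 3 libraries, and 16032 matched a GENCODE M21 symbol. Total counts of 12737971 to 50431713 per library put the limit that a count of 0 allows (3 counts) at 0.0565 to 0.239 normalized CPM, for counting error only.

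Counts were fitted over all 10 libraries with edgeR 4.0.16 in R 4.3.3 (TMM, quasi-likelihood test, Benjamini-Hochberg adjustment over all genes, no covariate). Calls needed a fold change above 2 and an adjusted p below 0.01. Statistics were printed for family genes with adjusted p under 0.05, the 3 largest fold changes of each comparison, and listed genes that were called. Other genes are given by their levels, and statistics for genes outside this rule (Itga11, Itgb6, Nid2, and Itga7 against EDL) were chosen after their values were seen. The genes and lists (basement membrane partners, integrin adaptors, dystroglycan complex, and cell type markers) were chosen with earlier results of these data known. Alternatives included DESeq2 1.42.0, limma-voom (limma 3.58.1), other scalings and filters, covariates for trimming, sex, and age, an animal effect, a replicate block, and leaving out each library. Some family and listed genes enter the counts and sums but are not reported singly here. Fits were tested on simulated data. Figures were drawn with matplotlib 3.10.9 in Python 3.11.15.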

Additional observations from a re-analysis of the deposited data

Results flagged for a closer look

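In 4 of the 34 genes, 1 of the 4 soleus libraries stood apart from the others by Dixon's test, which chance gives in about 1 of 20 groups. Itgae was lowest in soleus 1 at 1.30 normalized CPM, beside 2.03 to 2.07 in the other soleus libraries. Lama2 was lowest in soleus 3 at 28.8, beside 72.3 to 80.2. Lamc1 was lowest in soleus 3 at 32.9, beside 61.9 to 67.5. Nid1 was lowest in soleus 3 at 21.4, beside 61.3 to 66.5. Soleus 3 came from the youngest mouse, of 32 days, and had the lowest total count, 12737971. By the supplement of the study it also had the lowest RNA integrity number of the soleus libraries. The part of age, depth, or RNA quality in these values was not tested.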

How the results depend on the processing

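No log2 fold change reversed among the 20 followed. Shares and ratios of laminin chains and laminin-binding subunits were also followed, with alternatives that included leaving out the division by exon length. Their muscle means stayed within the SD of the muscle in 129 cases and moved further in 15. For psoas against EDL, where 0 of the 34 genes were called, DESeq2 called 4, and sex as a covariate, the 2 muscles alone, and the trimmed libraries alone each called 1 (Itga2), while adjusted p under 0.05 without a fold threshold passed 4. Leaving out 1 library gave 0 to 1 (Itgam without EDL 3, Itga2 without soleus 3). For soleus against EDL, the 3 calls became 5 with DESeq2, 1 with read trimming or with age as a covariate, 0 in the untrimmed libraries alone, and 6 at adjusted p under 0.05, and leaving out 1 library gave 1 to 3, with 1 without EDL 1 or EDL 2. For soleus against psoas, the 2 calls became 1 with limma-voom, sex, age, or the 2 muscles alone, 4 with animal as a random effect, 0 with read trimming as a covariate or in the untrimmed libraries alone, and 7 at adjusted p under 0.05. Leaving out 1 library gave 1 to 2, with 1 without EDL 1, EDL 2, psoas 1, psoas 2, soleus 2, or soleus 4. The causes were not tested. The untrimmed libraries held 1 EDL and 1 psoas library, assumed to vary like soleus. The trimmed-alone and untrimmed-alone fits were chosen after seeing the data.

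Over all genes, the 340, 929, and 917 calls for psoas against EDL, soleus against EDL, and soleus against psoas became 1095, 1520, and 1382 with DESeq2, 605, 371, and 566 with read trimming, and 187, 420, and 515 with age as a covariate. The sex covariate called 865 for psoas against EDL, the 2 muscles alone 153, and the trimmed libraries alone 159, and the untrimmed libraries alone called 0, 48, and 33. For soleus against EDL and soleus against psoas, the sex covariate called 786 and 958, and the 2 muscles alone 876 and 729. With animal as a random effect, the counts of the 3 comparisons were 400, 1053, and 1005. Without 1 library the counts ran from 61 to 963, 385 to 1511, and 493 to 964. Replicate numbers were shared between muscles, but same-numbered libraries deviated together in only some pairs (correlations -0.234 to 0.503), so the numbers were not taken as a pairing. A replicate block called 146, 586, and 539 genes and 0, 3, and 2 of the 34, with the same family genes called as without it. Genes with few counts, such as Itgae, Itga10, and Lamc3, are limited by depth.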
